A study of Mus musculus with 6 samples.

Results

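The receptors described here are inhibitory and checkpoint receptors of natural killer cells (NKC): Klrg1, Lag3, Havcr2, Pdcd1, Ctla4, Lilrb4a, Pilra, Pilrb1, Cd160 and Cd200r1. They were found by gene symbol, as every probe set of the array table annotated with that symbol alone. This gave 13 probe sets for 9 of the 10 genes, out of 18193 genes with such a probe set. For Lilrb4a the table held 1 probe set, which is annotated to both Lilrb4a and its neighbour Lilr4b, so it is reported as a shared probe set and not counted as a measurement of either gene. The samples were DX5+ cells sorted from the spleens of ICR mice aged 6 weeks, 3 Runx3-/- and 3 WT (Runx3 +/+), without stimulation. ICR is an outbred stock. Each sample came from 1 mouse by the series' design text, although both sexes are entered in the sex label of all 6 samples. The genotype labels name Runx3 alone, and both groups went through the same negative selection and sort.

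Inhibitory receptors set the threshold at which an NKC kills. Many carry a tyrosine motif in the cytoplasmic tail, which recruits the phosphatases SHP-1, SHP-2 or SHIP-1 when the receptor meets its ligand and so dampens signals from activating receptors. Klrg1 is a lectin-like receptor for cadherins that marks mature NKC. Lag3, Havcr2 (TIM-3), Pdcd1 (PD-1) and Ctla4 are the checkpoint receptors best known from exhausted or activated T cells. Lilrb4a (gp49B), Pilra and Cd200r1 are known mainly from myeloid and mast cells, and Cd160 is a lipid-anchored receptor for the TNF receptor family member HVEM.

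The arrays carried the NKC markers at high signal. The mean of the 12 tested NKC marker genes was 13.05 to 13.27 on the Runx3-/- arrays and 12.89 to 13.35 on the WT arrays (log2 signal), and 1 of them, Eomes, was called different. Markers of other cells were present too. The basophil and mast cell list, 14 genes, averaged 10.22 to 11.17 in Runx3-/- and 8.86 to 9.30 in WT. The macrophage and monocyte list, 11 genes, averaged 5.08 to 9.48 in Runx3-/- and 6.43 to 6.85 in WT, with the highest mean on Runx3-/- replicate 1 and the lowest on Runx3-/- replicate 3. Of 6 tested T cell markers 0 were called (limma, 0 with an unadjusted p under 0.05), and Cd4, Cd8a and Cd8b1 lay under log2 5 on every array. In a bulk sample, fewer cells of a type and less RNA per cell cannot be told apart. Runx3 itself had signals of 7.76, 8.51 and 8.68 in Runx3-/- against 10.11, 11.56 and 10.73 in WT on its brighter probe set. That is 5.59-fold lower in Runx3-/- (limma adjusted p = 0.0565), with no overlap between the groups. The dimmer Runx3 probe set, 1421467_at, read 4.57, 3.77 and 4.65 in Runx3-/- against 4.63, 4.59 and 5.88 in WT. It reached log2 5 on WT replicate 3 alone, and the groups overlapped. Whether either probe set lies in the deleted part is not known here.

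Of the 10 receptors, 5 reached a log2 signal of 5 on at least 1 array and were tested, namely Klrg1, Pilra, Pilrb1, Cd160 and Cd200r1. A gene was called at the study's thresholds when it differed by at least 1.5-fold with an unadjusted p under 0.05. By this rule 1 receptor, Cd200r1, was called higher in Runx3-/-, where 4.89% of all 9545 tested genes were, and 0 were called lower, against 8.86% of all genes. After Benjamini-Hochberg adjustment over all tested genes, 0 of the 5 passed an adjusted p under 0.05 by limma (1 had an unadjusted p under 0.05), against 0.608% of all genes. The groups did not overlap for 1 of the 5 receptors, against 22.8% of all genes. With 5 tested receptors, 1 call is a share of little precision beside these. On the log2 scale, Runx3-/- minus WT, all tested genes had a median change of -0.13, and the changes of the 5 receptors ran from -0.37 for Cd160 to 1.46 for Cd200r1. Of the 13 receptor probe sets and the shared one, 6 of 14 were highest on Runx3-/- replicate 1. These 6 include Lag3, Pdcd1 and Ctla4, which lay under log2 5 on every array and so have no order.

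**Figure D1:**
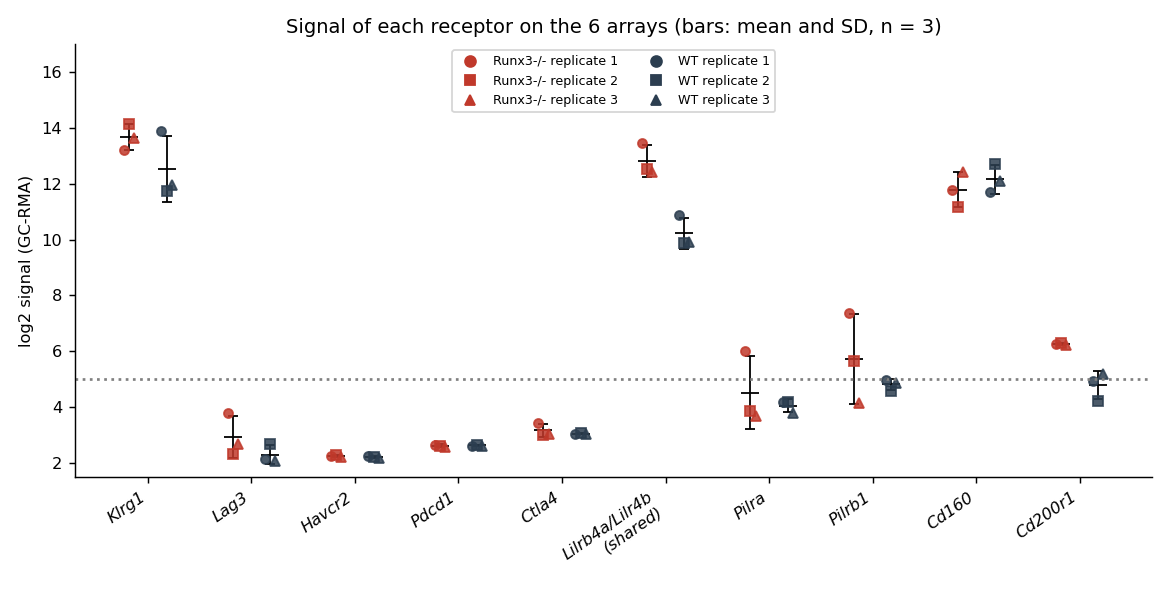
Log2 signal (vertical axis) of each receptor (horizontal axis) on its brightest probe set, with Runx3-/- arrays in red on the left and WT arrays in dark blue on the right of each pair; marker shapes give the replicate, black bars the mean and SD of 3 arrays, and the dotted line log2 5. The Cd200r1 signals lie at 6.21 to 6.30 in Runx3-/- and at 4.22 to 5.20 in WT, and WT replicate 1 lies among the Runx3-/- arrays for Klrg1.

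Cd200r1, the receptor for the membrane protein CD200, which signals through Dok adaptors and Ras GTPase-activating protein, was the receptor that was called. Its brighter probe set, 1422191_at, read 6.25, 6.30 and 6.21 in Runx3-/- against 4.95, 4.22 and 5.20 in WT. The Runx3-/- signals lay within 0.09 of each other and above all WT signals. The mean was 6.25 ± 0.05 in Runx3-/- and 4.79 ± 0.51 in WT (log2 signal ± SD over 3 arrays each), a log2 change of 1.46 (95% confidence interval 0.82 to 2.11, unadjusted p = 0.000918, limma adjusted p = 0.0768). Of the WT signals 2 lay under log2 5. With these raised to 5, the difference was at least 2.28-fold. The change stayed called with each array left out in turn, at 1.18 to 1.67, with adjusted p-values of 0.0800 to 0.242. With the mean of both Cd200r1 probe sets it was 0.65 (adjusted p = 0.153). The other Cd200r1 probe set, 1439703_at, lay between 4.20 and 4.74 on all 6 arrays and could not be tested, so the rise rests on 1 probe set.

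Cd200r1 has near relatives beside it in the genome, and their values differed in direction. They belong to a wider list of 13 paired and related receptors, of which 5 were tested: Cd200r3, Cd200r4, Cd28, Icos and Cd226. Of these 5, 0 were called higher and 1 lower, where 4.89% and 8.86% of all genes were (median log2 change -0.36). In 5 of the alternatives, among them the replicate block and the fit without WT replicate 2, 1 was called higher. Cd200r4, the neighbouring gene, read 3.93, 3.76 and 4.19 in Runx3-/- against 8.28, 3.91 and 9.89 in WT. A high signal was seen on 2 of the 3 WT arrays and on no Runx3-/- array, while WT replicate 2 lay with the Runx3-/- arrays. Cd200r4 was called lower (limma adjusted p = 0.275 on the deposited signals). With signals under log2 5 raised to 5 it was 6.61-fold lower. This is not a minimum, because WT replicate 2 was raised too. With arrays left out in turn, the call held without WT replicate 2 and was lost in the other 5 fits, with unadjusted p-values of 0.0611 to 0.103. Cd200r3, a receptor of mouse basophils and mast cells, gave different answers on its probe sets. Probe set 1430645_at read 6.37, 5.15 and 5.36 in Runx3-/- against 3.13, 2.57 and 3.12 in WT, with no overlap. All WT signals lay under log2 5, so the difference was at least 1.54-fold (adjusted p = 0.0603 over probe sets). The brighter set, 1453813_at, read 7.31, 4.95 and 3.81 in Runx3-/- against 6.87, 3.77 and 6.50 in WT, and the groups overlapped (log2 change -0.36).

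The largest change of the 14 probe sets was that of the probe set shared by Lilrb4a and Lilr4b. Lilrb4a encodes gp49B, an inhibitory receptor of NKC, mast cells and macrophages, and Lilr4b encodes gp49A, its close relative without the inhibitory motif. The probe set, 1420394_s_at, read 13.45, 12.54 and 12.40 in Runx3-/- against 10.87, 9.88 and 9.89 in WT. All Runx3-/- signals lay above all WT signals, and the lowest of them was more than 1 log2 unit above the highest WT signal. The mean was 12.80 ± 0.57 in Runx3-/- and 10.22 ± 0.57 in WT (log2 signal ± SD over 3 arrays each), 5.98-fold higher (log2 change 2.58, 95% confidence interval 1.67 to 3.50). In the fit with each of 17040 probe sets as its own feature, the unadjusted p was 0.000254 and the limma adjusted p 0.0709. In that fit 5.13% of probe sets were called higher at the study's thresholds, 7.55% were called lower, and 0.0880% passed an adjusted p under 0.05. The call held with each array left out, at 2.25 to 2.91, with adjusted p-values of 0.0442 (without WT replicate 1) to 0.264 (without Runx3-/- replicate 2). Which of the 2 genes carried the signal cannot be read from this probe set.

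The basophil and mast cell markers were higher on the same arrays as Cd200r1 and the shared probe set. Of 14 tested marker genes of these cells, 10 were called higher and 0 lower (median log2 change 1.68), 3 passed an adjusted p under 0.05, and the groups did not overlap for 12. Over all tested genes, 4.89% were called higher, 8.86% lower, 0.608% passed the adjusted p and 22.8% did not overlap. The list holds Cd200r3. The array means of the list were 11.17, 10.22 and 10.23 in Runx3-/- against 9.18, 8.86 and 9.30 in WT. Defining genes such as Mcpt8, a basophil protease, were far above log2 5 on every array, at 12.46 to 12.85 in Runx3-/- and 10.34 to 11.45 in WT. Within Runx3-/-, the shared probe set was highest on the array with the highest marker mean, replicate 1, while the Cd200r1 signals hardly differed. The part of these cells in the receptor signals was not tested.

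**Figure D2:**
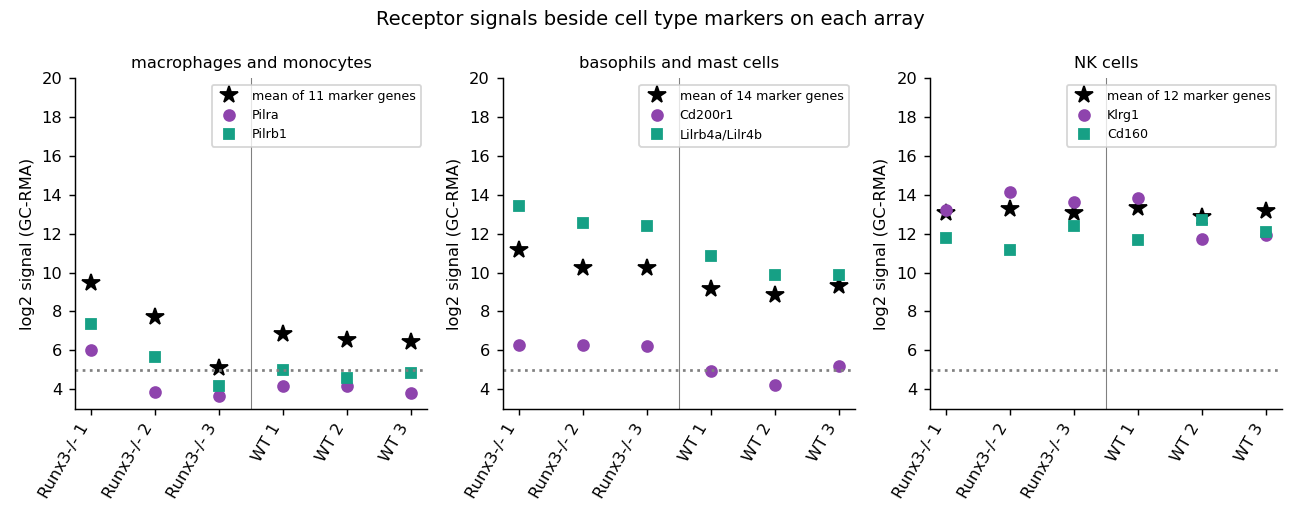
Log2 signal (vertical axis) on each of the 6 arrays (horizontal axis, Runx3-/- on the left and WT on the right of the vertical line), with stars for the mean of a marker list and coloured points for 2 receptors per panel; the dotted line marks log2 5. The macrophage mean runs from 5.08 on Runx3-/- replicate 3 to 9.48 on Runx3-/- replicate 1, and the basophil mean is 10.22 or more in Runx3-/- and 9.30 or less in WT.

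Klrg1 was bright on every array, and the WT arrays differed among themselves by more than the groups did. Probe set 1420788_at read 13.22, 14.15 and 13.64 in Runx3-/- against 13.87, 11.74 and 11.95 in WT. WT replicate 1 lay within the range of the Runx3-/- arrays, and the other two WT arrays lay below all of them. The mean was 13.67 ± 0.47 in Runx3-/- and 12.52 ± 1.17 in WT (log2 signal ± SD over 3 arrays each), 2.22-fold higher in Runx3-/-, while the WT arrays spanned 4.37-fold. The change did not meet the study's thresholds (log2 change 1.15, 95% confidence interval -0.15 to 2.45, unadjusted p = 0.0757, limma adjusted p = 0.354). It was called without WT replicate 1, at 1.82 (unadjusted p = 0.000792, adjusted p = 0.0535), and it was 0.76 without WT replicate 2, 0.87 without WT replicate 3 and 0.91 without Runx3-/- replicate 2. WT replicate 1 was also the WT array nearest to Runx3-/- on the first principal component of all tested genes (2.35, against 32.9 and 44.5 for the other WT arrays and -32.5 to -15.3 for Runx3-/-).

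Cd160 was read by 4 probe sets, all lower on average in Runx3-/-, by different amounts. The brightest, 1420066_s_at, read 11.78, 11.16 and 12.41 in Runx3-/- against 11.69, 12.69 and 12.08 in WT, and the groups overlapped widely. Its log2 change was -0.37 (95% confidence interval -1.26 to 0.52, limma adjusted p = 0.659). Probe set 1420396_at read 9.51, 8.76 and 9.82 in Runx3-/- against 9.68, 10.06 and 10.10 in WT, also overlapping (log2 change -0.59, adjusted p = 0.428 over probe sets). Probe set 1456847_at changed least, at -0.17, with 8.29 to 8.48 in Runx3-/- and 8.30 to 8.70 in WT. The dimmest, 1420067_at, was called lower, with 5.47, 3.59 and 4.99 in Runx3-/- against 5.73, 5.53 and 6.15 in WT and no overlap. With 2 of its Runx3-/- signals below log2 5, the fold is at least 1.57-fold lower (unadjusted p = 0.0494, adjusted p = 0.350). The call thus rests on the dimmest probe set, and the 3 brighter ones did not meet the thresholds.

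**Figure D3:**
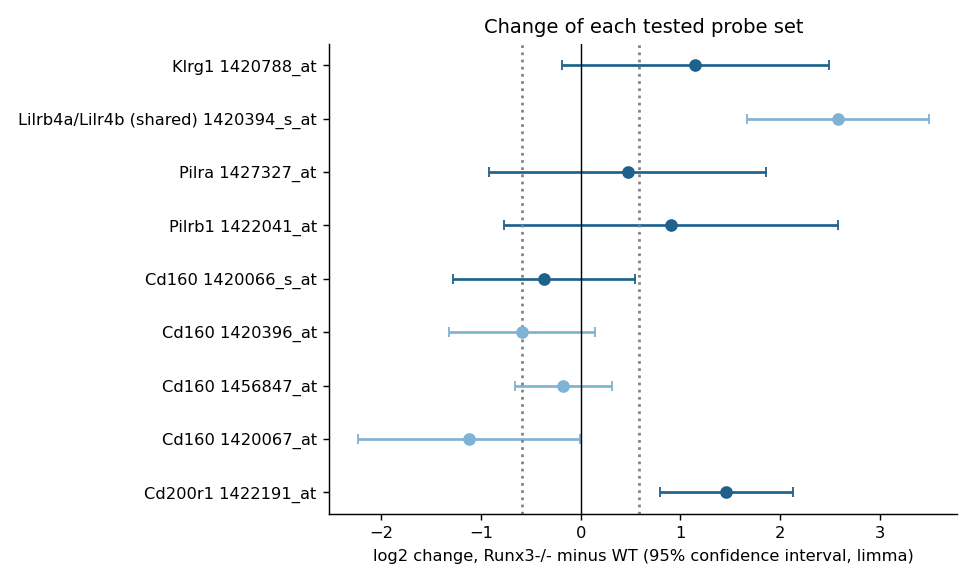
Difference in mean log2 signal, as Runx3-/- minus WT (horizontal axis), for the tested probe sets of the receptors (vertical axis), each with its 95% confidence interval from limma; dark points are the brightest probe set of a gene, pale points the others and the shared probe set, and dotted lines mark 1.5-fold. The interval of the Cd200r1 set runs from 0.80 to 2.13 in this fit, and those of Klrg1, Pilra and Pilrb1 cross 0.

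Pilra and Pilrb1 are paired receptors encoded side by side. Pilra carries an inhibitory motif, and Pilrb1 is its activating partner, which signals through the adaptor DAP12 (Tyrobp). Pilra read 6.02, 3.88 and 3.67 in Runx3-/- against 4.18, 4.18 and 3.79 in WT. It stood above log2 5 on Runx3-/- replicate 1 alone, and its other signals have no order (log2 change 0.47, 95% confidence interval -0.88 to 1.83, limma adjusted p = 0.714). Without Runx3-/- replicate 1, Pilra did not reach log2 5 and could not be tested. Pilrb1 read 7.36, 5.63 and 4.16 in Runx3-/- against 4.98, 4.59 and 4.85 in WT. All WT signals and that of Runx3-/- replicate 3 lay under log2 5 and so have no order. With these raised to 5, the Runx3-/- arrays spanned 5.12-fold. On the signals as deposited, Pilrb1 had a log2 change of 0.91 (95% confidence interval -0.72 to 2.54, limma adjusted p = 0.543). Its change was 0.09 without Runx3-/- replicate 1, and 1.69 and called without Runx3-/- replicate 3 (unadjusted p = 0.0122). The macrophage and monocyte markers ran in the same order as Pilrb1 over the Runx3-/- arrays, with means of 9.48, 7.73 and 5.08, against 6.85, 6.53 and 6.43 in WT. Of 11 such markers 2, Adgre1 and Cd14, were called higher and 0 lower, where 4.89% and 8.86% of all genes were. Cd14 reached log2 5 on Runx3-/- replicate 1 alone, and its groups overlapped. With signals under log2 5 raised to 5, Cd14 was 1.16-fold higher, which is below the 1.5-fold threshold. The part of macrophages and monocytes in the signals of the paired receptors was not tested. Tyrobp, named for its role after its values were seen, did not meet the thresholds (14.22 to 14.66 in Runx3-/- and 14.44 to 14.58 in WT).

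The promoters of this pair are near copies of each other, and they are shown for that likeness. It does not bear on the probe sets, which read transcripts. Sequences are from RefSeq on GRCm38.p6 and cover the 250 bases before the annotated start. Capitals mark hexamers of the RUNX motif, the form TGTGGT along with the variants written TGTGGC or TGCGGT and the further variant TGCGGC, searched on both strands, and those on the opposite strand appear as their reverse complements. Pilra lies at chr5:137836279-137836528 and Pilrb1 at chr5:137858050-137858299, both on the minus strand.
Pilra: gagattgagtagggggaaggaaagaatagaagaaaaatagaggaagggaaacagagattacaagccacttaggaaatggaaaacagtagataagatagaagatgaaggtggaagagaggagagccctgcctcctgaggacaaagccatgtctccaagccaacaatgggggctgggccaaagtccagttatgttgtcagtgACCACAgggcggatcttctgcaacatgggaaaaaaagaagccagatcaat
Pilrb1: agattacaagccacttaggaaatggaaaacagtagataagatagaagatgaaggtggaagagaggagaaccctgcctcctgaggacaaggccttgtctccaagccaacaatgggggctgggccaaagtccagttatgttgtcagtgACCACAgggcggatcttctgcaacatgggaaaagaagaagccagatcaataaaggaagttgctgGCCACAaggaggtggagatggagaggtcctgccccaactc
With Pilrb1 shifted by 54 bases, 242 of 246 overlapping bases of the windows, which run 50 bases past the start, were identical (98.4%). Both windows held 1 TGTGGT and 1 TGTGGC, each on the opposite strand. In Pilra the TGTGGC fell after the start and so outside the printed stretch.

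Cd160, with a bright signal in both groups, has 2 annotated starts on the minus strand of chromosome 3, at the ends of chr3:96829352-96829601 and chr3:96814522-96814771.
Cd160 first: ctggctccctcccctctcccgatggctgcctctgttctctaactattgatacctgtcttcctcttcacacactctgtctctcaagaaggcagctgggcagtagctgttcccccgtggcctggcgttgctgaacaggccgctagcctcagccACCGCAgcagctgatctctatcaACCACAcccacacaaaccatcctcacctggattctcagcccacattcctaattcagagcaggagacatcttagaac
Cd160 second: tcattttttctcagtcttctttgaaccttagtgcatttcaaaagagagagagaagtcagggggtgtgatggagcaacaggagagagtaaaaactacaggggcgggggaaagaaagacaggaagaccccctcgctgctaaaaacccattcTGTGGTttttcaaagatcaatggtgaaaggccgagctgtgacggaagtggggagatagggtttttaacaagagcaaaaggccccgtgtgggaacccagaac
The first held 1 TGTGGT and 1 TGCGGT on the opposite strand, and the second 1 TGTGGT on the same strand. Promoters were found for 6 of the 10 receptors. Of these 6 genes, 4 held at least 1 of the 4 hexamers in a window of 300 bases, namely Cd160, Havcr2, Pilra and Pilrb1. Of all 32851 promoters searched, 45.2% did. That share counts promoters and not genes, while Cd160 has 2 promoters and the Pilra and Pilrb1 windows are near copies. Ctla4 and Pdcd1 held none. A hexamer is a match of letters and not a binding site.

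The checkpoint receptors of exhausted T cells gave no signal above log2 5 on any array. Lag3, which binds MHC class II, read 3.79, 2.32 and 2.69 in Runx3-/- against 2.15, 2.68 and 2.07 in WT. As all of these lay under log2 5, they have no order. Havcr2 (TIM-3, which binds galectin-9) lay at 2.21 to 2.27 in Runx3-/- and 2.18 to 2.24 in WT. Pdcd1, the receptor of PD-L1 and PD-L2, lay at 2.58 to 2.66 in Runx3-/- and 2.61 to 2.64 in WT. Ctla4, which competes with CD28 for CD80 and CD86, lay at 3.01 to 3.43 in Runx3-/- and 3.04 to 3.07 in WT. Each has 1 probe set, and whether these probe sets respond at all in NKC was not tested, so a low level and an insensitive probe set cannot be told apart. In a fit with no filter on level, the 4 genes had log2 changes of -0.01 to 0.63 and adjusted p-values of 0.603 to 0.950.

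**Figure D4:**
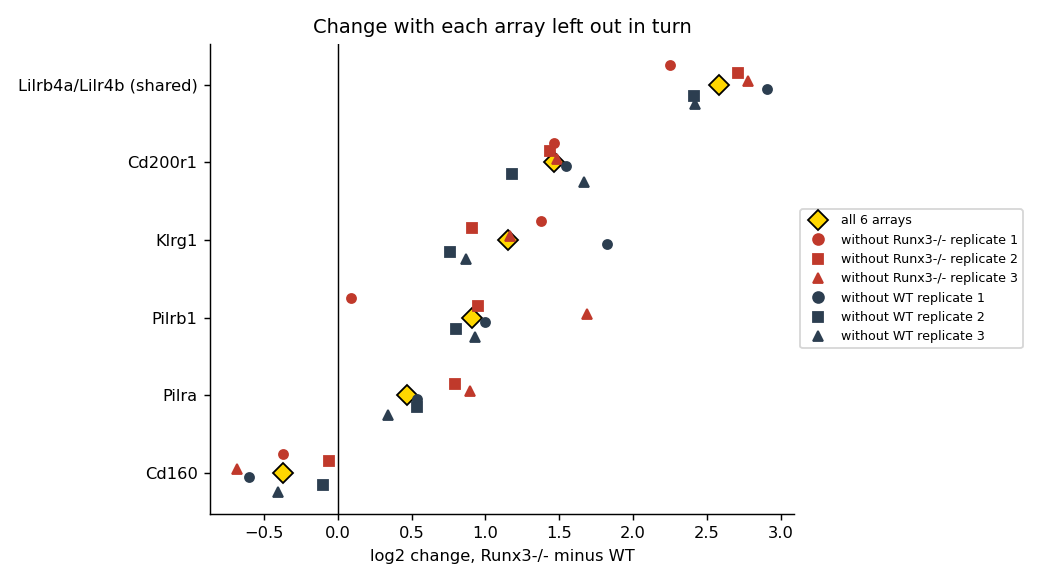
Log2 change, Runx3-/- minus WT (horizontal axis), of the 5 tested receptors and the shared probe set (vertical axis) with all 6 arrays (diamonds) and with each array left out (red for Runx3-/-, dark blue for WT arrays, shapes by replicate). The changes of Cd200r1 stay between 1.18 and 1.67, that of Klrg1 is 1.82 without WT replicate 1, and that of Pilrb1 is 0.09 without Runx3-/- replicate 1, where Pilra has no point.

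Among other inhibitory receptors of lymphocytes and myeloid cells, 11 of those tested were called higher. Of 30 listed genes, 22 were tested. At the study's thresholds 11 rose and 1 fell, and 0 passed an adjusted p under 0.05 (limma, 12 with an unadjusted p under 0.05). Over all tested genes, 4.89% were called higher, 8.86% lower and 0.608% passed the adjusted p. The median log2 change of the list was 0.77, against -0.13 for all tested genes, and 0.38 with signals under log2 5 raised to 5. Cd96, a nectin-family receptor of NKC, was the one called lower, 1.95-fold (adjusted p = 0.137). Pirb, which binds MHC class I on myeloid and B cells, was at least 3.24-fold higher (adjusted p = 0.155), Cd300lf 2.68-fold (adjusted p = 0.158) and Siglecf, a sialic acid receptor of eosinophils, 2.26-fold (adjusted p = 0.160). Named after their values were seen, Klrc1 (NKG2A), Milr1, Cd22, Fcgr2b, Cd300a, Btla, Slamf6 and Ceacam1 made up the rest of the higher genes. With signals under log2 5 raised to 5, the folds of all 11 ran from 1.01 (Milr1) to 3.24 (Pirb). Milr1 read 5.04, 4.04 and 4.59 in Runx3-/- and lay under log2 5 on all WT arrays. Signals of both groups were thus raised, and its fold is not a minimum. Cd22, Fcgr2b and Btla are known from B cells, and the B cell and plasma cell list averaged 7.31 to 8.34 in Runx3-/- and 6.29 to 7.52 in WT over 11 genes. The mean of that list was highest on replicate 1 of each group, as was Btla. Fcgr2b was highest on Runx3-/- replicate 2 and WT replicate 1, and Cd22 on Runx3-/- replicate 3 and WT replicate 2. The called genes were highest on Runx3-/- replicate 1 in 7 of 11 cases. With signals under log2 5 raised to 5, 8 were called higher. The count called higher was 5 without Runx3-/- replicate 1, 7 without Runx3-/- replicate 2 and 7 without WT replicate 2. The part of other cell types was not tested.

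Of 19 listed ligands of the receptors, 11 were tested, 3 were called higher and 0 lower, where 4.89% and 8.86% of all genes were (median log2 change 0.38, against -0.13 for all tested genes), and 0 passed an adjusted p under 0.05 (limma, 3 with an unadjusted p under 0.05). Cdh1, the E-cadherin that Klrg1 binds, read 11.96, 11.43 and 11.17 in Runx3-/- against 10.07, 9.99 and 10.59 in WT. The groups did not overlap, and Cdh1 was 2.47-fold higher in Runx3-/- (adjusted p = 0.113). Itgb3, a subunit of the integrin that gp49B binds, was 3.00-fold higher (adjusted p = 0.208). Cd86, a ligand of Ctla4, was called higher (adjusted p = 0.144 on the deposited signals). It read 5.78, 5.40 and 4.48 in Runx3-/- against 3.80, 3.84 and 4.05 in WT. All its WT signals and that of Runx3-/- replicate 3 lay under log2 5. With signals under log2 5 raised to 5, Cd86 was 1.31-fold higher, short of 1.5-fold, and 2 ligands were called higher. Named for its role after its values were seen, the PD-1 ligand gene Cd274 did not meet the thresholds (8.27 to 9.21 in Runx3-/- and 7.99 to 8.59 in WT). Without Runx3-/- replicate 1 the count called higher was 2, and without WT replicate 1 there was 1 called lower.

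Of 23 listed signalling partners of inhibitory receptors, 21 were tested, and 1 was called lower and 0 higher, where 8.86% and 4.89% of all genes were (median log2 change -0.09, against -0.13 for all tested genes), and 0 passed an adjusted p under 0.05 (limma, 1 with an unadjusted p under 0.05). That gene was Ptpn6, which encodes the phosphatase SHP-1. It read 11.91, 11.56 and 12.04 in Runx3-/- against 12.73, 12.88 and 12.97 in WT. All Runx3-/- arrays lay below all WT arrays, and Ptpn6 was 2.03-fold lower (log2 change -1.02, unadjusted p = 0.00156, limma adjusted p = 0.101). Ptpn6 stayed called with each array left out, at -1.12 to -0.88 (adjusted p-values of 0.0843 to 0.286). Named for their roles after their values were seen, Ptpn11 (SHP-2) had a log2 change of -0.04 and Inpp5d (SHIP-1) of -0.31, and neither met the thresholds. Of the Cd200r1 partners, Dok2 had a change of -0.16 and Rasa1 of 0.51, and neither met them. Without WT replicate 1, and without WT replicate 3, 1 partner was called higher.

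Of 20 listed transcription factors tied to checkpoint receptors, 19 were tested, 2 were called higher and 3 lower, among them Runx3 itself as the targeted gene. Over all tested genes 4.89% were called higher and 8.86% lower. None passed an adjusted p under 0.05 (limma, 6 with an unadjusted p under 0.05). Their median log2 change was 0.13, against -0.13 for all tested genes. Ikzf2 (Helios) was 2.23-fold higher (limma adjusted p = 0.144), Runx1, a relative of Runx3, 1.77-fold higher (adjusted p = 0.263), and Eomes, a T-box factor of NKC, 1.63-fold lower (adjusted p = 0.185). The remaining lower gene was Nfatc2, a factor of calcium signalling, at 1.72-fold (adjusted p = 0.264). The count called higher was 1 without Runx3-/- replicate 1, 4 without Runx3-/- replicate 2 and 1 without WT replicate 2. The related T-box gene Tbx21, named after its values were seen, did not meet the thresholds (13.83 to 14.12 in Runx3-/- and 13.59 to 13.88 in WT).

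**Figure D5:**
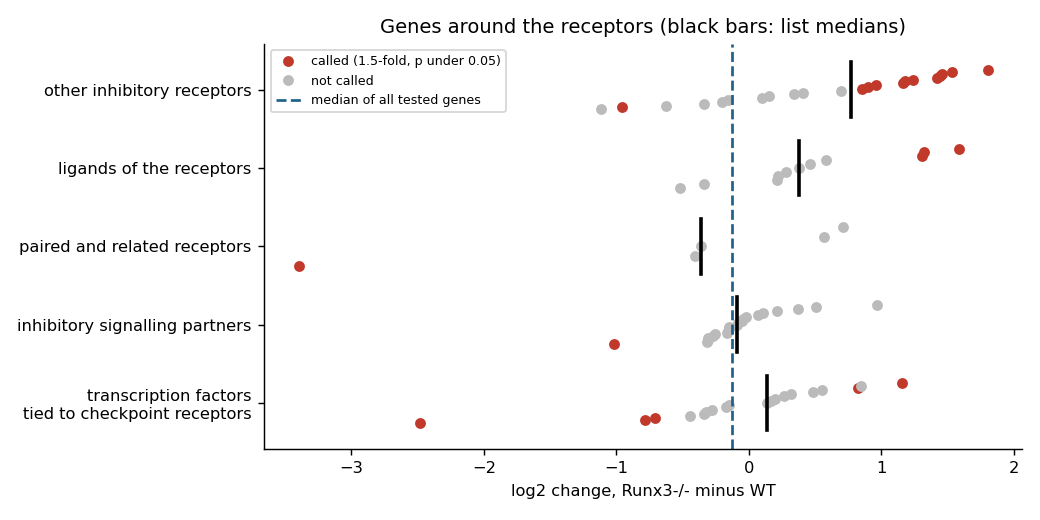
Difference in log2 signal, Runx3-/- minus WT (horizontal axis), for every tested gene of 5 lists (vertical axis), red where called at the study's thresholds and grey where not; black bars are list medians and the dashed line is the median of all tested genes, -0.13. The median of the other inhibitory receptors lies at 0.77 and that of the signalling partners at -0.09.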

How the data were processed

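RNA of the 6 samples was labelled with biotin and read on Affymetrix mouse arrays, 1 array per sample. The authors used GC-RMA in Partek (no version is given in the sources used here) and deposited log2 signals for 45101 probe sets. GC-RMA brings the arrays to a common distribution, so a change in total RNA per cell cannot be seen, and dim signals follow the background model. Gene names came from the annotation of the platform (34945 with 1 symbol, 932 with several), and all 13 receptor probe sets matched a RefSeq gene by identifier. For each gene the probe set of highest mean signal was taken, and genes at log2 5 or more on at least 1 array (9545) were tested by limma 3.58.1 in R 4.3.3, with no covariate and Benjamini-Hochberg adjustment across all genes. Log2 5 stands in for the study's background level. The p-values given beside an at-least fold, or a fold with signals raised to 5, come from the signals as deposited. A second fit took each named probe set (17040) as a feature. Lists are described by counts and medians. All receptors named are given, and of each list up to 4 called genes with the smallest p. The receptors, lists and alternatives were chosen with earlier results of these data known. The fit was tested on simulated data, and 19 alternatives, 6 of them leaving out 1 array, were tried. The number of arrays limits the precision.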

Additional observations from a re-analysis of the deposited data

How the results depend on the processing

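Of 110 refits of the 5 tested receptors and the shared probe set, 107 kept direction and call, 3 gained a call and 0 reversed. With 1 receptor called higher on the deposited values, 2 were called with array weights, and 1 to 2 with each array left out. With each probe set as a feature, 1 receptor (Cd160) was called lower. An adjusted p under 0.05 was passed by 1 receptor (Cd200r1) with values under 5 raised to 5 and by 1 with array weights. With no filter on level, 9 receptors were tested. Of the other inhibitory receptors, 7 were called higher with no filter, 7 with the mean of a gene's probe sets, 5 in the unmoderated model and 5 to 9 with each array left out, and 2 were called lower with array weights, 2 with each probe set as a feature and 1 to 2 with each array left out. Over all genes, the count at an adjusted p under 0.05 was 58, and 0 to 203 under the alternatives. The causes were not tested. The deviations of same-numbered arrays of the groups had correlations of 0.07, -0.19 and 0.15. Those of differently numbered arrays ran from -0.27 to 0.22. With 3 arrays per group, these values cannot decide whether the numbers pair the mice. With the number as a replicate block, Cd200r1 had a log2 change of 1.46 (limma adjusted p = 0.136), and no receptor call changed. Receptors near log2 5, Cd200r1, Pilra and Pilrb1, are limited by the background.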

Other observations

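Ctla4 lies between Cd28 and Icos in the genome, and both neighbours were well above log2 5 while Ctla4 was below it on every array. Icos, a costimulatory receptor, read 9.37, 9.77 and 9.31 in Runx3-/- against 8.16, 9.22 and 8.93 in WT on its brightest probe set, with no overlap between the groups, but it did not meet the study's thresholds (1.64-fold higher, limma adjusted p = 0.313). Its other probe sets changed by 0.15 and 0.71 on the log2 scale, and both overlapped. Cd28 had a log2 change of -0.41 and overlapped.

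Among the transcription factors, Zeb2, a factor of mature NKC, was singled out after its values were seen, for its spread within WT. It read 11.93, 12.01 and 11.61 in Runx3-/- against 12.38, 9.74 and 10.90 in WT, and did not meet the thresholds (log2 change 0.84, limma adjusted p = 0.506). As with Klrg1, WT replicate 1 was the highest WT array and the other two WT arrays lay below all Runx3-/- arrays. The relation between the genes was not tested.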
